A study of Arabidopsis thaliana with 6 samples.

Results

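Nuclear factor Y (NF-Y) is a transcription factor built from a subunit of each of 3 classes, NF-YA, NF-YB and NF-YC, and each class is encoded by a gene family in Arabidopsis thaliana. The genes described here are the rows whose name is NF-Y followed by the class letter and a number, with or without the hyphen. There were 27 such rows among 22759 named rows, with 8 of class A, 9 of class B and 10 of class C. RNA was measured in 3 libraries of hrlp-2 seedlings and 3 libraries of wild-type (WT) seedlings of the Columbia background, each described as a biological replicate. The labels call hrlp-2 a knockout of HRLP, a gene for an RNA-binding protein related to hnRNP R. All seedlings were 9 days old and grown, with no other treatment named, at 23 ± 2 °C in 16 h light and 8 h dark, and only their aerial parts were used.

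NF-YB and NF-YC proteins pair through histone-fold domains, enter the nucleus together and there take up an NF-YA protein, which reads the sequence CCAAT in promoters. In flowering, the NF-YB and NF-YC pair also works with CONSTANS (CO), the day-length regulator, whose CCT domain resembles the DNA-binding part of NF-YA. The complex with CO acts at FLOWERING LOCUS T (FT), the gene of the mobile flowering signal, and binds sequences that hold CCACA. NF-YA transcripts are targets of the microRNA family miR169, which guides their cleavage.

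The miR169 sequences are shown because they set some NF-YA genes apart from the other subunit genes. RefSeq (TAIR10.1) lists 4 distinct mature sequences on the 5′ arm or as the only product, given here with the seed (bases 2 to 8) in capitals. Of these, 3 share the seed AGCCAAG, and the sequence of miR169d, miR169e, miR169f-5p and miR169g-5p is shifted by a base and has the seed GAGCCAA.
miR169a-5p: cAGCCAAGgaugacuugccga
miR169b-5p and miR169c: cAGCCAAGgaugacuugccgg
miR169d, e, f-5p and g-5p: uGAGCCAAggaugacuugccg
miR169h to miR169n: uAGCCAAGgaugacuugccug

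A match was scored against the RefSeq transcripts with a penalty of 1 for a mismatch and 0.5 for a G:U pair, and a total of at most 3.5 was taken as a site. By that rule, 6 of the 8 NF-YA genes held a site, all in the 3′ UTR, against 0 of 9 NF-YB genes and 0 of the 8 NF-YC genes whose locus is known. Among all 27444 protein-coding genes, 20 (0.0729%) held one. NFYA4 and NFYA7 were the NF-YA genes without a site. The site sequences follow on the strand of the transcript, with bases in Watson-Crick pairs with the best-matching miR169 in capitals and G:U pairs and mismatches in lower case.
NFYA1, chr5:4051058-4051078, minus strand: CCGGCAAaUCAUuCUUGGCUu
NFYA5, chr1:20217494-20217514, minus strand: aCGGgAAGUCAUCCUUGGCUa
NFYA6, chr3:4644334-4644354, plus strand: aAGGgAAGUCAUCCUUGGCUA
NFYA8, chr1:6050422-6050442, minus strand: aAGGgAAGUCAUCCUUGGCUg
NFYA9, chr3:7328380-7328400, plus strand: CGGCAAuUCAUuCUUGGCUuu
NFYA10, chr5:1986749-1986769, plus strand: CAGGCAAaUCAUCuUUGGCUc

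The 250 bases before the annotated start of FT are shown because the complex is known to work at this gene. They held 0 copies of CCAAT and 3 of CCACA, counted on both strands and marked in capitals (CCACA, or TGTGG where it lies on the other strand). Whether these copies are bound was not measured, and FT sequence outside the window was not searched. Of all 27443 promoters of this length, 28.4% held CCACA and 46.0% held CCAAT. The same window of NFYB2, the most abundant subunit gene, held 1 CCAAT and 1 CCACA, both in capitals.
FT, chr1:24331123-24331372, plus strand: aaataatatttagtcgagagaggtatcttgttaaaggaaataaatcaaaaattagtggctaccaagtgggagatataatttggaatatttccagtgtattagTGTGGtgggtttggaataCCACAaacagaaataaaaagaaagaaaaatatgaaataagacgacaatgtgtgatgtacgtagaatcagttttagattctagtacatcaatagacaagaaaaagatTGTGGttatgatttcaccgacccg
NFYB2, chr5:19308977-19309226, plus strand: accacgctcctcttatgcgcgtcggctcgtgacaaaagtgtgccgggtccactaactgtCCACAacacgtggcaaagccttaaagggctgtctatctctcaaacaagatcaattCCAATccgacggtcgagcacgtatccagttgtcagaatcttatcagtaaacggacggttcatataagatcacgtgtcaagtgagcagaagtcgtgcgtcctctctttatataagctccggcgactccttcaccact
CCAAT was present in 12 of the 25 NF-Y promoters with a known locus (48.0%), near the share over all genes.

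The deposited values give each gene's reads as a share of its library's total (CPM). A value of 1 CPM was worth about 19.95 to 25.2 reads in hrlp-2 libraries and 22.1 to 23.5 in WT libraries. Values below are CPM with the SD over 3 libraries. Differences on the log2(CPM + 0.5) scale were tested with limma in the 18643 rows that reached 0.5 CPM in 3 libraries. Their p-values were adjusted by the Benjamini-Hochberg method over all these rows, and a gene was called at an adjusted p under 0.05. HRLP itself measured 16.76, 17.03 and 15.88 CPM in hrlp-2 and 30.03, 33.04 and 30.37 CPM in WT, so its transcript was lower but present in every mutant library. The 5 markers of green tissue together made up 39730 to 40040 CPM in hrlp-2 and 38960 to 40280 CPM in WT. All 5 were called without overlap between the groups, where 20.4% of all tested rows were called and 33.4% did not overlap. RBCS1A, LHCA2 and PSBO1 were higher and RBCS1B and LHCB1.1 lower, at 92.6% to 109.7% of WT. The SE of their log2 fold changes was 0.0145 to 0.0191, so small differences passed at these high levels. The root markers CASP2 and CASP4 were listed at 0 in every library. CASP1 was detected in all of them, at 0.457 ± 0.261 CPM in hrlp-2 and 0.397 ± 0.119 CPM in WT. COBL9 reached at most 0.08 CPM in hrlp-2 and 0.09 CPM in WT. The 5 root markers with a row summed to 260.2 to 276.1 CPM in hrlp-2 and 231.2 to 233 CPM in WT. Nearly all of it was PYK10, an abundant enzyme of roots and hypocotyls, whose part in the results below was not tested. The seed markers with a row summed to at most 0.18 CPM in hrlp-2 and 0.49 CPM in WT. WT replicate 3 stood apart, with a mean chi-square per gene of 13.4 and 11.3 against WT replicates 1 and 2, where the other pairs within groups had 2.25 to 2.50. The median per gene was no higher for its pairs, at 0.899 and 0.866, than for WT replicates 1 and 2, at 0.919. Without it, 1 NF-Y gene was called higher in hrlp-2 (NFYC4) and 1 lower (NFYC10).

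Of the 27 NF-Y genes, 24 passed the filter. In hrlp-2, 2 were higher (NFYB2 and NFYC4), 2 were lower (NFYB3 and NFYC10) and 20 did not pass the test. The called share, 16.7%, was no larger than that of all rows tested, of which 20.4% were called, 11.0% higher and 9.31% lower. The median log2 fold change was -0.06 over the 24 NF-Y genes and 0.00 over all tested rows, and the median size without sign was 0.10 and 0.11. The groups did not overlap for 7 genes, 3 with every hrlp-2 library above every WT library and 4 below, where 33.4% of all tested rows had groups that did not overlap (14.7% above and 18.7% below). Fewer cells of a type and less RNA per cell cannot be told apart in these whole-tissue libraries.

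**Figure D1:**
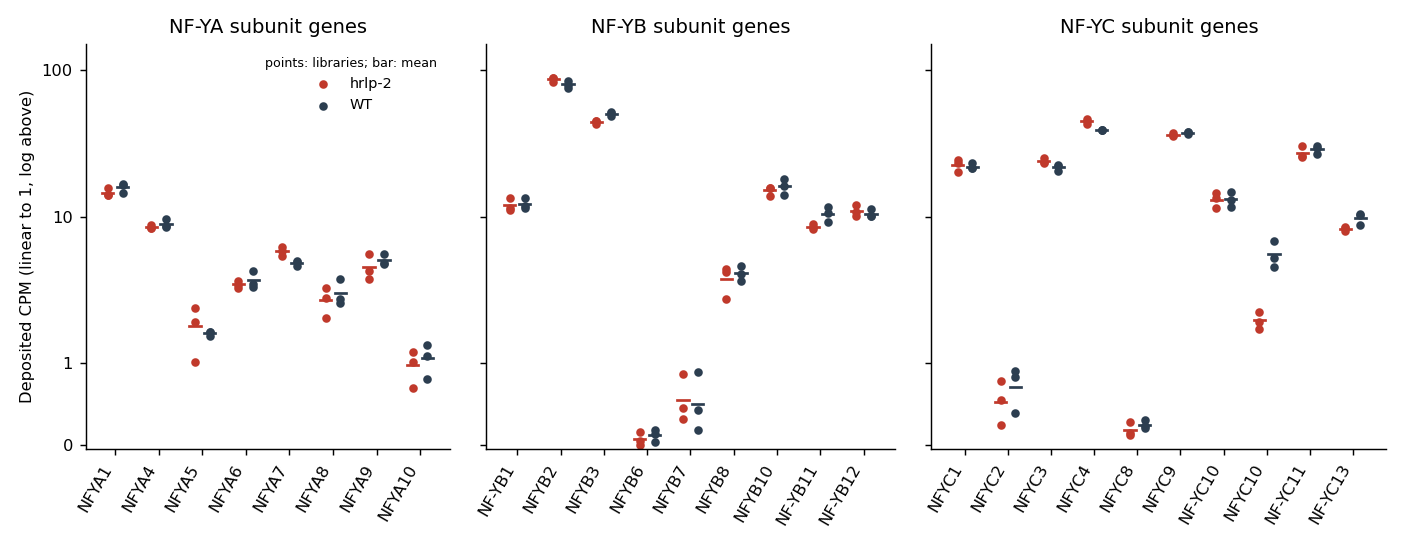
Deposited CPM (linear up to 1, logarithmic above) of each NF-Y gene in each library, by subunit class, with hrlp-2 left of WT in each pair. Points are libraries and bars are means of 3. Most genes sit at the same height in both groups, and NFYC10, at 1.71 to 2.25 CPM in hrlp-2 and 4.57 to 6.85 CPM in WT, shows the widest gap.

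**Figure D2:**
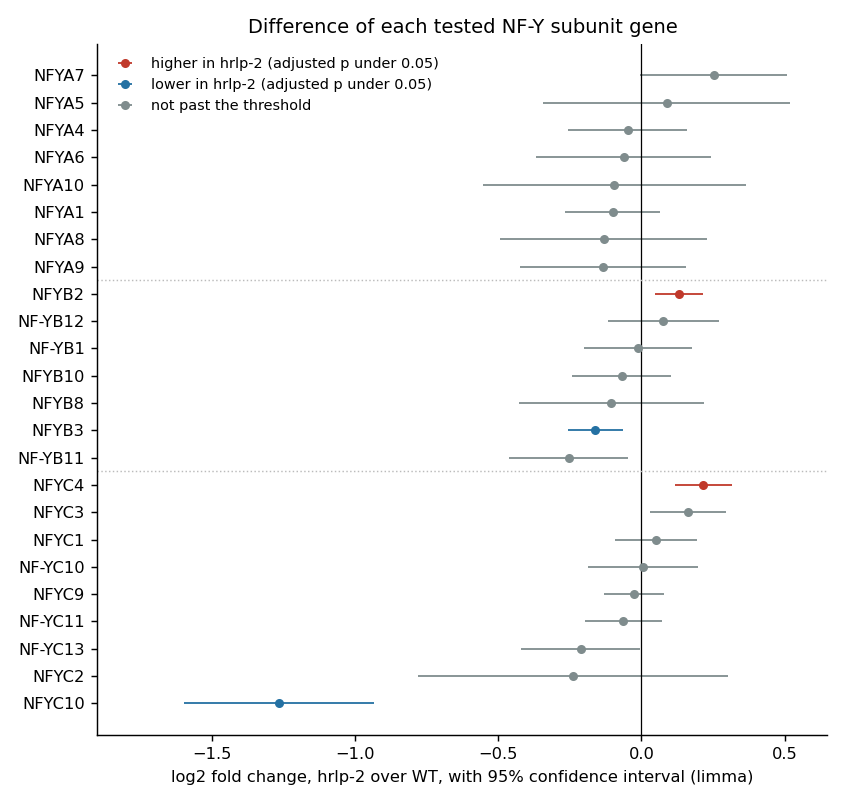
Log2 fold change of hrlp-2 over WT for the 24 tested NF-Y genes with the 95% confidence interval from limma, grouped by class. Colours mark the 2 higher, 2 lower and 20 other genes. NFYC10 lies at -1.27, and the next farthest from 0 are NF-YB11 at -0.25 and NFYA7 at 0.25.

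The NF-YA class, which supplies the DNA-reading subunit, had 0 of 8 genes called by limma in either direction, where 20.4% of all rows were called. At an unadjusted p under 0.05 there were 0 as well, where 31.2% of all rows lay under it. Together these genes measured 39.28, 43.65 and 43.90 CPM in hrlp-2 (42.28 ± 2.60) and 45.81, 44.90 and 41.62 CPM in WT (44.11 ± 2.20), so the sums overlapped. NFYA1 was the most abundant of the class, with 13.98, 14.14 and 15.56 CPM in hrlp-2 and 16.46, 16.81 and 14.39 CPM in WT (log2 fold change -0.10, 95% confidence interval -0.27 to 0.06, limma adjusted p = 0.43). NFYA4, known to act with the stress factor bZIP28 in the endoplasmic reticulum stress response, measured 8.49 ± 0.263 CPM in hrlp-2 and 8.92 ± 0.567 CPM in WT.

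NFYA7 was the only NF-YA gene whose groups did not overlap, where 33.4% of all tested rows had groups that did not overlap. It measured 5.36, 5.84 and 6.17 CPM in hrlp-2 and 4.59, 5.01 and 4.93 CPM in WT, a log2 fold change of 0.25 (95% confidence interval -0.00 to 0.51) that did not pass the test (limma adjusted p = 0.169). The 6 genes with a miR169 site had log2 fold changes of -0.13 to 0.09, and NFYA4, which like NFYA7 has no site, lay within that range at -0.05. NFYA5, known for its induction by drought and abscisic acid, had the widest relative spread in hrlp-2, at 1.03, 2.40 and 1.93 CPM, around its WT values of 1.53, 1.64 and 1.63 CPM. NFYA10, whose miR169-guided control is known from root branching, was the lowest of the class at 0.977 ± 0.254 CPM in hrlp-2 and 1.09 ± 0.262 CPM in WT. RefSeq lists 10 NF-Y genes that have no row under the name rule, and 2 of them, NF-YA2 and NF-YA3, have rows under the synonyms UNE8 and HAP2C. UNE8 measured 3.74 ± 0.218 CPM in hrlp-2 and 3.48 ± 0.396 CPM in WT, and HAP2C 3.22 ± 0.536 CPM in hrlp-2 and 2.88 ± 0.211 CPM in WT, and neither passed (limma adjusted p = 0.661 and 0.574). Both hold a miR169 site by the same rule, and their log2 fold changes were 0.11 and 0.15. The mature miR169 RNAs were not analysed here.

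In the NF-YB class, the pair of genes best known from flowering moved in opposite directions. NFYB2 and NFYB3 together promote flowering in long days. NFYB2 (chr5:19309227-19310272) measured 82.04, 88.38 and 87.43 CPM in hrlp-2 and 79.15, 84.13 and 75.37 CPM in WT. Its lowest hrlp-2 library lay below its highest WT library, and the difference was 0.13 on the log2 scale (SE 0.0408, limma adjusted p = 0.0193). NFYB3 (chr4:8344349-8345324) measured 42.53, 44.91 and 45.03 CPM in hrlp-2, all below its WT values of 48.14, 51.40 and 50.83 CPM. It differed by -0.16 on the log2 scale (SE 0.0470, limma adjusted p = 0.0129).

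Neither call held in every fit. NFYB2 missed the threshold with the CPM left unscaled (limma adjusted p = 0.0567) and without WT replicate 3, hrlp-2 replicate 2 or hrlp-2 replicate 3 (0.14, 0.109 and 0.0794), over a range of 0.00815 to 0.14 across 15 alternatives. NFYB3 missed it without WT replicate 2, WT replicate 3 or hrlp-2 replicate 1 (0.0559, 0.0567 and 0.0722), over a range of 0.00566 to 0.0722. The sign stayed the same for both in all 15. NFYB2 overlaps a noncoding gene by 367 bases and ATNUDT2 by 81 bases on the opposite strand, and ATNUDT2 measured 13.79 ± 1.24 CPM in hrlp-2 and 12.55 ± 0.858 CPM in WT. The library kit marks strand, but the strand setting of the counting is not given in the sources used here. NFYB3 overlaps no other annotated gene.

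The ratio of the pair within a library restates these differences, and it was chosen after the values were seen. NFYB2 over NFYB3 was 1.93, 1.97 and 1.94 in hrlp-2 and 1.64, 1.64 and 1.48 in WT. Their sum was 130.1 ± 4.81 CPM in hrlp-2 and 129.7 ± 5.10 CPM in WT.

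The other NF-YB genes did not pass the test. NF-YB11 had groups that did not overlap, with 8.85, 8.19 and 8.47 CPM in hrlp-2 and 9.14, 11.58 and 10.55 CPM in WT (log2 fold change -0.25, limma adjusted p = 0.0777). It passed without WT replicate 1 (0.0288), in a range of 0.0288 to 0.318. NF-YB1, known for drought tolerance, measured 11.95 ± 1.23 CPM in hrlp-2 and 12.21 ± 0.970 CPM in WT. NF-YB12, which resembles a subunit of the general repressor NC2, measured 10.95 ± 0.939 CPM in hrlp-2 and 10.49 ± 0.676 CPM in WT. NFYB8 measured 3.78 ± 0.902 CPM in hrlp-2 and 4.11 ± 0.484 CPM in WT. NFYB10 measured 15.08 ± 1.1 CPM in hrlp-2 and 16.11 ± 1.95 CPM in WT. NFYB6, a close relative of the embryo regulator LEC1, stayed under the filter at 0.16, 0 and 0.05 CPM in hrlp-2 and 0.04, 0.18 and 0.14 CPM in WT. NFYB7 did so too, at 0.87, 0.45 and 0.32 CPM in hrlp-2 and 0.43, 0.89 and 0.18 CPM in WT. The NF-YB class summed to 181 ± 4.25 CPM in hrlp-2 and 183.6 ± 7.40 CPM in WT.

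**Figure D3:**
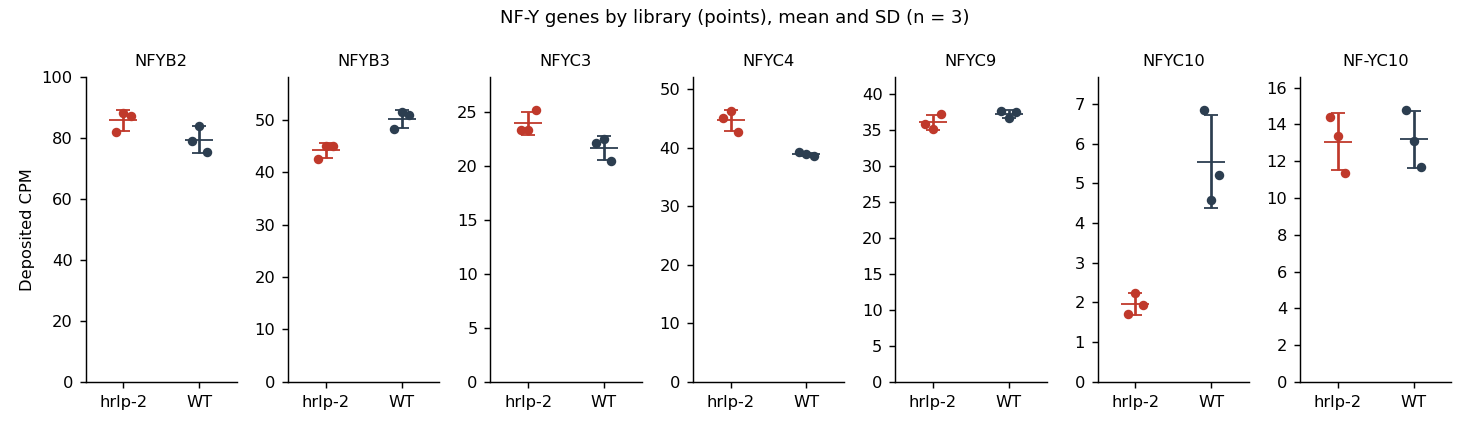
Deposited CPM of the NF-YB and NF-YC genes known from flowering and of the rows NFYC10 and NF-YC10, with hrlp-2 left of WT. Points are libraries, with the mean and SD of 3, and each axis starts at 0. NFYB3 and NFYC10 lie lower in hrlp-2 without overlap, NFYC4 and NFYC3 higher without overlap, and NF-YC10 lies at the same height in both groups.

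The NF-YC class had 1 gene higher, 1 lower and 7 that did not pass among 9 tested. The called share was 22.2%, near the 20.4% of all tested rows. Groups did not overlap for 2 genes above WT and 2 below, where 33.4% of all tested rows did not overlap. NFYC3, NFYC4 and NFYC9 are known to act redundantly with CO in flowering and to bind DELLA proteins. NFYC4 (chr5:25415600-25417199) measured 45.07, 46.22 and 42.68 CPM in hrlp-2 and 39.17, 38.85 and 38.65 CPM in WT, without overlap. On the log2 scale it was higher by 0.22 (SE 0.0489, limma adjusted p = 0.00140), and it was called in all 15 alternatives. NFYC4 overlaps a protein-coding gene on the opposite strand, AT5G63480, by 367 bases, and no row could be matched to that gene.

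NFYC3 lay in the same direction as NFYC4 but did not pass. It measured 23.35, 23.38 and 25.23 CPM in hrlp-2 and 22.12, 22.48 and 20.46 CPM in WT (log2 fold change 0.16, limma adjusted p = 0.0752), without overlap. NFYC9 measured 35.82, 35.17 and 37.20 CPM in hrlp-2 and 37.64, 36.59 and 37.43 CPM in WT (log2 fold change -0.03, 95% confidence interval -0.13 to 0.08, limma adjusted p = 0.789). The 3 genes summed to 104.2, 104.8 and 105.1 CPM in hrlp-2 and 98.93, 97.92 and 96.54 CPM in WT. This sum was not tested and restates the differences of its genes, most of all that of NFYC4. In ratios chosen after the values were seen, NFYC4 over NFYC9 was 1.26, 1.31 and 1.15 in hrlp-2 and 1.04, 1.06 and 1.03 in WT. The longest identical stretch between annotated transcripts was 38 bases for NFYC3 and NFYC4 and 47 bases for NFYC1 and NFYC4.

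The row NFYC10 had the largest difference of all NF-Y genes. It measured 1.71, 2.25 and 1.93 CPM in hrlp-2 and 6.85, 4.57 and 5.21 CPM in WT, so that the hrlp-2 mean was 35.4% of the WT mean. The log2 fold change was -1.27 (SE 0.163, 95% confidence interval -1.60 to -0.93, limma adjusted p = 4.23e-07). The call held in all 15 alternatives, with log2 fold changes of -1.48 to -1.12, and among the 1735 rows called lower it ranked 21 by size. The values stand for an estimated 41.9 to 161 reads per library.

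A second row, spelled NF-YC10, carries the same gene name and did not share the difference. It measured 14.41, 13.39 and 11.37 CPM in hrlp-2 and 14.80, 13.08 and 11.68 CPM in WT (log2 fold change 0.01, 95% confidence interval -0.19 to 0.20, limma adjusted p = 0.978). RefSeq has a single gene of that name, so the locus behind NFYC10 could not be settled, and neither row is given a position or a role here. Added together, the 2 rows measured 15.02 ± 1.51 CPM in hrlp-2 and 18.73 ± 2.56 CPM in WT. Every hrlp-2 library (13.3 to 16.12 CPM) lay below every WT library (16.89 to 21.65 CPM). The sum restates the NFYC10 difference, and whether the 2 rows belong to the same gene could not be settled.

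Among the other NF-YC genes, NF-YC13 had groups that did not overlap, with 8.46, 7.94 and 8.38 CPM in hrlp-2 and 10.25, 10.42 and 8.74 CPM in WT, and did not pass (limma adjusted p = 0.152). NFYC1, known for freezing tolerance, measured 22.47 ± 2.18 CPM in hrlp-2 and 21.92 ± 0.985 CPM in WT. NF-YC11, which resembles the other NC2 subunit, measured 27.20 ± 2.54 CPM in hrlp-2 and 28.82 ± 2.02 CPM in WT. NFYC2 measured 0.79, 0.55 and 0.24 CPM in hrlp-2 and 0.84, 0.39 and 0.91 CPM in WT. It shares 1417 bases with AT1G56180 on the opposite strand, which measured 19.47 ± 2.82 CPM in hrlp-2 and 21.79 ± 1.92 CPM in WT. NFYC8 stayed under the filter at 0.12, 0.15 and 0.28 CPM in hrlp-2 and 0.21, 0.31 and 0.23 CPM in WT. The class summed to 178.4 ± 4.41 CPM in hrlp-2 and 178 ± 3.5 CPM in WT.

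Levels of different genes were compared per kilobase of annotated exon, for the 25 genes with a known locus. Exon length was taken over all annotated transcripts of a gene together. NFYB2 stood highest in both groups, at 82.17 ± 3.27 CPM per kb in hrlp-2 and 76.05 ± 4.2 in WT, followed by NFYB3 at 45.24 ± 1.45 in hrlp-2 and 51.36 ± 1.78 in WT. On this scale NFYB2 made up 49.0% of the NF-YB level in hrlp-2 and 44.7% in WT, and NFYB3 made up 27.0% in hrlp-2 and 30.2% in WT. That level leaves out NF-YB4, NF-YB5, LEC1 and NF-YB13, for which no row was found. NFYC4 led its class at 27.91 ± 1.13 CPM per kb in hrlp-2 and 24.31 ± 0.164 in WT, beyond the spread between libraries. NF-YC11, NFYC1 and NFYC9 followed at 19.47 to 20.71 in hrlp-2 and 20.10 to 20.92 in WT, and their order did not go beyond that spread. The spread does not cover the choice of exon length, which was 1600 bases for NFYC4 and 1852 for NFYC9. Before division by length, NFYC4 and NFYC9 measured 44.66 and 36.06 CPM in hrlp-2 and 38.89 and 37.22 CPM in WT. NFYA1 led the NF-YA class at 9.15 ± 0.546 CPM per kb in hrlp-2 and 9.98 ± 0.822 in WT, below the leading gene of either partner class. NFYB6 was lowest, at 0.0503 CPM per kb in hrlp-2 and 0.0862 in WT.

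**Figure D4:**
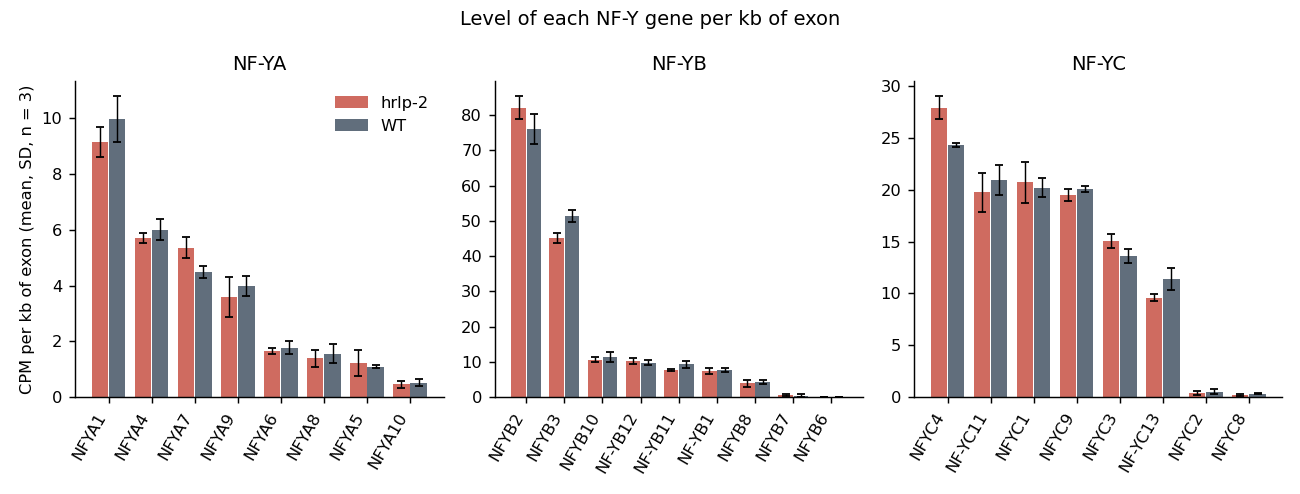
Mean CPM per kilobase of exon of the 25 NF-Y genes with a known locus, in order of their WT level within each class, with hrlp-2 left of WT. Error bars are the SD of 3 libraries and each class has its own axis. NFYB2 and NFYB3 stand far above the rest of NF-YB, at 82.17 and 45.24 in hrlp-2, where NFYB10 is at 10.60.

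The genes around CO and FT were read from a list of 16, of which 13 were tested. Among these, 1 was higher and 2 were lower, where 20.4% of all tested rows were called. Their median log2 fold change was -0.11, and that of all tested rows was 0.00. CO measured 1.95, 1.80 and 1.75 CPM in hrlp-2 and 2.38, 2.08 and 3.08 CPM in WT, without overlap, and did not pass (log2 fold change -0.34, limma adjusted p = 0.199). FT, the target shown above, measured 0.75, 0.95 and 0.78 CPM in hrlp-2 and 1.49, 1.06 and 1.45 CPM in WT, also without overlap, and did not pass (log2 fold change -0.45, limma adjusted p = 0.155). These FT values stand for an estimated 16.9 to 35.1 reads. Of all tested rows, 33.4% had groups that did not overlap. The 2 lower genes were SOC1, which acts after FT in the floral transition, and GI, which acts before CO. SOC1 measured 19.93, 19.83 and 20.67 CPM in hrlp-2 and 24.88, 25.94 and 24.90 CPM in WT. GI measured 106.7 ± 2.01 CPM in hrlp-2 and 117 ± 3.16 CPM in WT (limma adjusted p = 0.0160), and missed the threshold without WT replicate 1 or hrlp-2 replicate 2, over a range of 0.00539 to 0.0788. The higher gene was FLC, the repressor of FT and SOC1, at 12.29, 11.88 and 12.54 CPM in hrlp-2 and 4.67, 4.68 and 3.99 CPM in WT.

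NF-Y also works with bZIP factors and is bound by DELLA proteins, the repressors of gibberellin responses. Of 14 listed genes 12 were tested, with 1 higher and 1 lower, where 20.4% of all tested rows were called. Their median log2 fold change was -0.07, and that of all tested rows was 0.00. HYH, a bZIP relative of the light-signalling factor HY5, measured 4.41, 4 and 4.19 CPM in hrlp-2, all below its WT values of 6.76, 6.70 and 6.70 CPM (log2 fold change -0.60, SE 0.124, limma adjusted p = 0.000527). HY5 itself did not pass, at 9.83 CPM in hrlp-2 and 11.29 CPM in WT. The DELLA gene GAI measured 53.45, 48.80 and 49.77 CPM in hrlp-2 and 46.14, 43.82 and 43.50 CPM in WT (log2 fold change 0.21, SE 0.0477, limma adjusted p = 0.00185). The calls of HYH and GAI held in all 15 alternatives.

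In the heat branch, where NF-Y works with DREB2A, 6 of 9 listed genes were tested. Of these 6, 0 were called by limma in either direction, where 20.4% of all rows were. HSFA2 alone was under 0.05 before adjustment, where 31.2% of all rows were, at 0.957 CPM in hrlp-2 and 1.60 CPM in WT (limma adjusted p = 0.0906). For the endoplasmic reticulum stress branch, 2 of 7 listed genes had a row and were tested, and BIP1, BIP2, BIP3, CNX1 and CRT1A had none. PDIL1-1, a protein folding enzyme, was the 1 gene higher of these 2, where 20.4% of all rows were called. It measured 122.3 ± 1.29 CPM in hrlp-2 and 110.5 ± 4.45 CPM in WT (limma adjusted p = 0.000535). Of the 4 genes listed for the embryo programme, in which NF-YB6 and LEC1 act, 1 was tested (WRI1) and it did not pass (limma adjusted p = 0.37). Of 9 genes listed as NF-Y-like histone-fold subunits, 5 were matched to a row, all of them NF-Y genes by the name rule. These were NFYB6, NF-YB11, NF-YB12, NF-YC11 and NF-YC13, which are described above. LEC1, NFYB13 and NFYC12 had no matched row, and NFYC10 could not be tied to a single row.

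**Figure D5:**
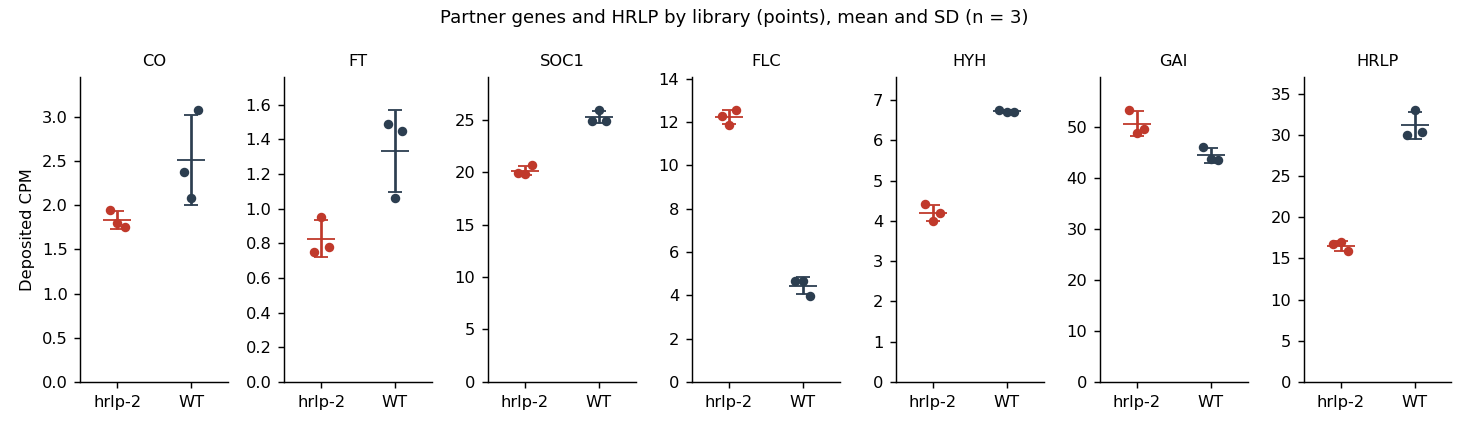
Deposited CPM of CO, FT, SOC1, FLC, HYH, GAI and HRLP by library, with hrlp-2 left of WT. Points are libraries, with the mean and SD of 3, and each axis starts at 0. The groups do not overlap for any of the 7 genes, where 33.4% of all tested rows had groups that did not overlap. HYH and GAI are shown because they were called in these data. CO and FT, at 1.83 and 0.827 CPM in hrlp-2 and 2.51 and 1.33 CPM in WT, did not pass the test.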

How the data were processed

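RNA was measured in 3 hrlp-2 and 3 WT libraries made from total RNA, per the labels' protocols with a directional kit. The submitters' processing notes name STAR 2.7.3a and the build TAIR10. The counter, annotation and strand setting are not stated in any source used here. The authors deposited 1 table of CPM (reads as a share of the library total) per library. Low values lay on steps of 1 read for 88% to 89.5% of rows (within 0.0051 CPM, for values under 2 CPM), so reads are estimates, cover counting error only, and no count model was the main test. One unnamed row was left out.

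Rows that reached 0.5 CPM in 3 or more libraries were scaled by unweighted trimmed-mean factors (0.990 to 1.013) and tested with limma 3.58.1 in R 4.3.3 on log2(CPM + 0.5), on which the changes of low genes come out smaller than they are. Tests were two-sided with Benjamini-Hochberg adjustment at 0.05, and the functions were tested on simulated data. An exact permutation test of 3 against 3 libraries cannot go below p = 0.1. Replicates were taken as separate on the labels' word, and no pair was close enough to be 1 library.

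Loci, positions, exons and sequences come from RefSeq, build TAIR10.1, and 25 of 27 NF-Y rows matched a unique locus. Every NF-Y row was named; CO, FT, SOC1, FLC and HRLP were named in any case, and up to 4 called genes of each other list. HY5, HSFA2, WRI1, AT1G56180, ATNUDT2, UNE8, HAP2C, LHCB1.1, CASP1, CASP2, CASP4 and COBL9 were added after their values were seen. AT5G63480 was added for its overlap with NFYC4. The genes and lists were chosen with earlier results of these data known. Of 82 list members, 59 had a row. The alternatives were other pseudocounts, filters and scalings, limma-voom, the replicate block and leaving out each library.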

Additional observations from a re-analysis of the deposited data

How the results depend on the processing

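Across 15 alternatives, NFYC10 and NFYC4 were called in all, with the same sign. The count of NF-Y genes higher in hrlp-2 was 2, and 1 with the CPM left unscaled, where NFYB2 missed the threshold. Leaving out single libraries gave 1 to 2 higher and 1 to 3 lower, through NFYB2, NFYB3 and NF-YB11. Over all rows these fits called 1617 to 1861 higher and 1352 to 1477 lower, against 2059 and 1735 from all 6 libraries. Without rescaling, 1639 rows were higher and 2035 lower. The other settings kept both NF-Y counts at 2. The cause was not tested. The ratio of summed CPM, hrlp-2 over WT, was 0.958 for NF-YA, 0.986 for NF-YB and 1.002 for NF-YC, and the alternatives moved it by less than the spread between libraries, among them trimmed-mean scaling, added after seeing the data.

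The replicate numbers did not pair the samples, since same-numbered libraries had correlations of -0.01, -0.02 and -0.03. The replicate block gave 2 NF-Y genes higher and 2 lower, and 2057 and 1727 rows in all. Weakly expressed genes such as NFYA10, NFYC2 and FT rest on an estimated 5.21 to 35.1 reads per library, and small differences were not detectable there at this depth.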
